A study of Saccharomyces pastorianus Weihenstephan 34/70 with 7 samples.

Results

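The comparison set yeast from glucose wort with Flavourzyme (n = 2 arrays) against yeast from the same wort without the enzyme, the glucose control (n = 2 arrays). It used 4 of the 7 arrays of the series, and the question was which transcripts the peptidase changed when the extra sugar was glucose. All samples were the flocculent lager yeast Weihenstephan 34/70 (*Saccharomyces pastorianus*), grown from a single-colony preculture in 21 °Plato wort supplemented with glucose syrup or maltose syrup and sampled in the stationary phase. The other arrays, 2 maltose controls and 1 maltose wort sample with Flavourzyme, served only to estimate the spread and to test whether the glucose effect differed from the maltose one. The labels number the duplicates but do not say that they came from separate fermentations, so p-values measure only the spread between these samples, which may be technical. Samples with and without Flavourzyme were taken at different fermentation times, so the enzyme and the sampling time cannot be told apart. No transcript can check the enzyme label, because Flavourzyme was added as protein.

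Flavourzyme is a peptidase mixture from *Aspergillus oryzae* that cuts wort proteins and peptides into free amino acids. Brewer's yeast takes up amino acids, ammonium and small peptides through permeases. Many of these genes are under nitrogen catabolite repression, in which preferred nitrogen sources keep genes for poor ones off, or under the SPS sensor, by which extracellular amino acids switch on amino acid permeases. Nitrogen and sugar supply also set the output of the ribosome factory, the nucleolar proteins that process ribosomal RNA and assemble ribosomes. Glucose wort brings the hexose transporters into play, a family in which members of low and high affinity are expressed at different sugar levels.

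Each array was a single Affymetrix Yeast Genome 2.0 hybridisation, and the values are log2 signals made by RMA, a background correction, normalisation and probe summary method. A signal is relative to the rest of its array, so less of a transcript per cell and more of all others cannot be told apart. The genome of this lager strain is a hybrid, while the probes were designed on *S. cerevisiae*. A total of 5635 genes had a usable probe set, and 5370 of them lay above the 95th percentile of the *Schizosaccharomyces pombe* probe sets on the same arrays, which should bind no brewer's yeast transcript.

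The glucose controls were less alike than any other pair of duplicates. The controls correlated at 0.928 over genes, against 0.988 for the Flavourzyme arrays and 0.997 for the maltose controls. Both controls were closer to the Flavourzyme arrays than to each other, at 0.952 and 0.956 for control replicate 1 and 0.968 and 0.979 for control replicate 2. These are correlations across genes, which are not independent replicates. The standard deviation of the difference between duplicates was 0.35 for Flavourzyme and 0.86 for the controls, on the log2 scale. Hence both Flavourzyme arrays lay between the controls for 2179 genes (38.7%), above both for 588 (10.4%) and below both for 1087 (19.3%), or on one side for 1675 (29.7%). With every array centred on its median, the counts above and below both were 875 and 805, since the median of all genes was lower by 0.08 with Flavourzyme.

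Some technical signals also moved with the groups. The mean log2 signal of 17 ribosomal RNA probe sets was 13.2 and 12.2 with Flavourzyme, against 11.2 and 11.7 in the controls. The mean difference between the 3′ and 5′ probe sets of 8 control genes, a measure of how far the labelled RNA was shortened, was 1.31 and 1.20 with Flavourzyme, against 0.98 and 0.87 in the controls. The genes were not alike. ACT1, EAF5, URA3 and WBP1 were higher with Flavourzyme without overlap, while the groups overlapped in RIP1, SPT15 and SRB4. TDH1 was lower, at 0.17 and 0.24 with Flavourzyme, against 0.32 and 0.25 in the controls. The poly-A spike transcripts, added to the RNA in the laboratory, gave a mean of 11.7 and 7.30 with Flavourzyme, against 7.25 and 9.09 in the controls, so the first Flavourzyme array stood apart. The part of these signals in the gene results was not tested.

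With both controls in the fit, no gene passed an adjusted p of 0.05 in limma (0% of 5635). The smallest adjusted p was 0.455, and 393 genes (6.97%) had an unadjusted p under 0.05, 125 higher (2.22%) and 268 lower (4.76%) with Flavourzyme. Against control replicate 1 alone, 603 genes were called higher (10.7%) and 1271 lower (22.6%), together 33.3%. Against control replicate 2 alone, the counts were 377 (6.69%) and 186 (3.3%), together 9.99%. These fits have no spread of their own for the control: the lone control is assumed to vary like the Flavourzyme and maltose duplicates, which were tighter than the glucose controls. In both fits and in the same direction, 33 genes were called higher (0.586%) and 47 lower (0.834%), 80 in all (1.42%), whereas 185 (3.28%) were called in opposite directions. Without the first or the second maltose control no gene was called against each control, and without the first or the second Flavourzyme array 488 or 992 were.

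**Figure D1:**
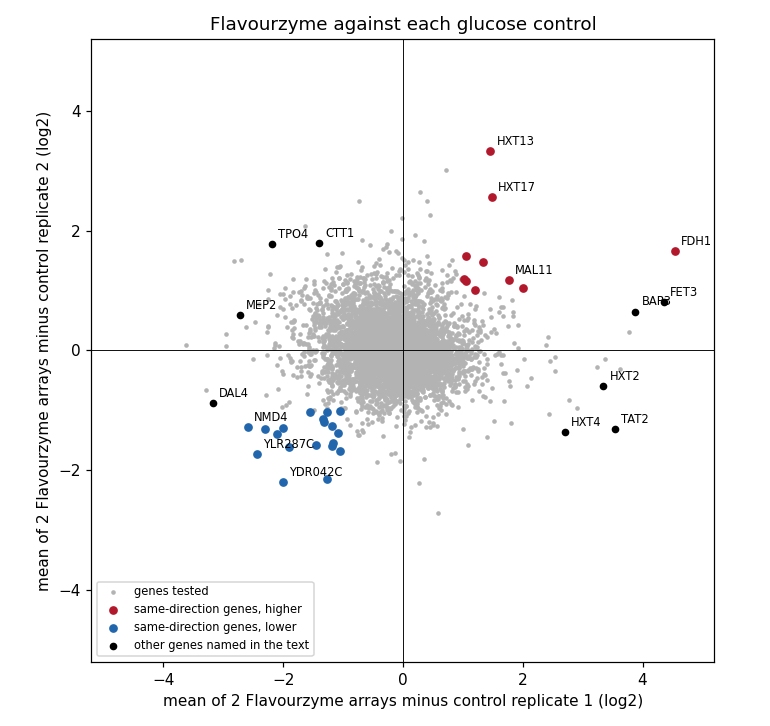
Difference of the Flavourzyme mean from control replicate 1 (x axis) and from control replicate 2 (y axis), in log2 units, one point for each of 5635 genes. The 10 higher and 19 lower same-direction genes lie in the upper right and lower left, while HXT2, HXT4 and TAT2 lie at the lower right, where the controls disagree.

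A stricter description asked for both Flavourzyme arrays on the same side of both controls and for a Flavourzyme mean at least 1 log2 unit from each control. Of 5635 genes, 29 met this (0.515%), 10 higher (0.177%) and 19 lower (0.337%), and they are called same-direction genes here. The higher genes were FDH1, HXT17, HXT13, MCD1, MAL11, PRY3, DSE4, FTR1, YKL018C-A and HUR1. The lower ones were YDR042C, YLR287C, RME1, SLD2, YAP7, MCH5, FCF2, NMD4, IPI3, ARR3, YCR016W, MAE1, MAM1, SPT14, NAT4, CBS1, ATG16, RNT1 and YJR011C. Their adjusted p in limma ran from 0.455 to 0.730, and 20 of the 29 were among the genes called against each control alone. Just inside the limit lay YJR011C and HUR1, with smaller differences of 1.01 and 1.01, and just outside RHB1 and LEU9, with 0.99 and 0.97. With median centring the split was 15 higher and 14 lower.

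**Figure D2:**
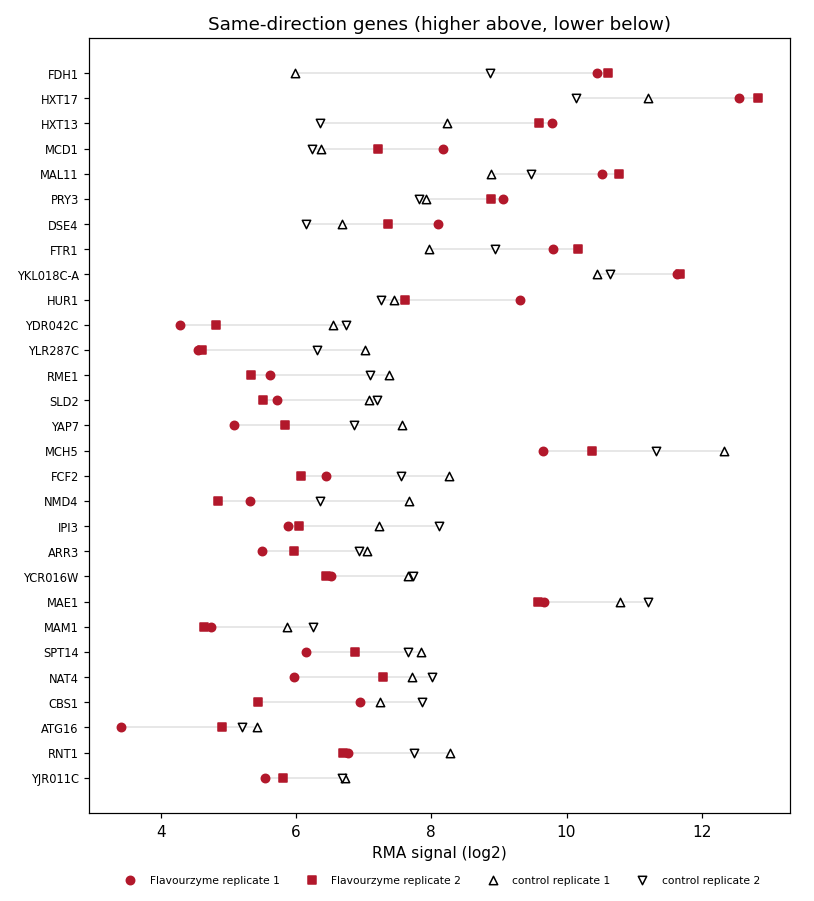
Log2 RMA signal (x axis) of the 29 same-direction genes on the 4 glucose wort arrays, with filled red symbols for Flavourzyme and open symbols for control. RME1 lies at 5.62 and 5.33 with Flavourzyme, against 7.37 and 7.10 in the controls, and the wide gap between the open symbols of FDH1 shows how far the controls stood apart.

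Regulators of meiosis and of DNA replication were among the lower genes. RME1, a repressor of entry into meiosis that also promotes the cell cycle, had signals of 5.62 and 5.33 with Flavourzyme, against 7.37 and 7.10 in the controls (difference -1.76 ± 0.21, SE). SLD2, which helps to start DNA replication, read 5.72 and 5.52 on the Flavourzyme arrays, against 7.08 and 7.20 on the control arrays (-1.52 ± 0.19). The nearest arrays of the groups were 1.48 and 1.35 log2 units apart in these genes, and the smallest adjusted p of the whole fit, 0.455, was theirs together with YDR042C and YLR287C. The last 2 are open reading frames for which no function is given here. YDR042C stood at 4.28 and 4.81 with Flavourzyme and at 6.55 and 6.74 in the controls, and YLR287C measured 4.55 and 4.61 with Flavourzyme and 7.02 and 6.30 in the controls. The Flavourzyme values of both genes lay below 4.95, the level that 95 in 100 of the *S. pombe* probe sets stayed under, so these are signals near background. MAM1, a monopolin subunit that orients chromosomes in meiosis, gave 4.75 and 4.65 with Flavourzyme, against 5.87 and 6.25 in the controls, with the Flavourzyme values again below that level.

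Meiosis and sporulation genes as a list did not stand clear of all genes. Of the 45 measured, 11 lay below both controls without overlap and 2 above, 24.4% and 4.44% beside 19.3% and 10.4% of all genes, with a median difference of -0.20. After median centring 9 lay below and 7 above, where 14.3% and 15.5% of all genes did. A mean signal under the *S. pombe* level was found for 17 members. RME1, which acts against meiosis, was the only member called in the same direction against each control. Cell cycle genes and DNA replication genes had shares below both controls of 22% (11 of 50) and 27.1% (13 of 48), near that of all genes. SLD2 was the DNA replication gene with the lowest p.

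Ribosome biogenesis genes lay below the controls more often than genes at large. Of 127 measured, 52 (40.9%) lay below both controls without overlap, against 19.3% of all genes, and 4 lay above both, against 10.4%. The median difference was -0.32 against control replicate 1 and -0.32 against control replicate 2, where the medians of all genes were -0.17 and -0.02. None was called with both controls in the fit, and 9 were called lower and none higher against each control alone. After median centring, 44 lay below both controls and 6 above, where 14.3% and 15.5% of all genes did.

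The largest differences of that group belonged to genes of both ribosomal subunits. FCF2, needed for the early cuts of the small subunit RNA, had signals of 6.44 and 6.08 with Flavourzyme, against 8.27 and 7.55 in the controls (-1.65 ± 0.30). IPI3, a subunit of the Rix1 complex that removes a spacer from the large subunit RNA, read 5.88 and 6.05 on the Flavourzyme arrays, against 7.23 and 8.11 on the control arrays (-1.70 ± 0.32). YCR016W, a nucleolar protein of unknown function, stood at 6.52 and 6.44 with Flavourzyme and at 7.66 and 7.74 in the controls (-1.22 ± 0.18). All 3 are same-direction genes, so their groups were apart by the rule that picked them. The controls of YCR016W were 0.07 log2 units apart. Smaller differences without overlap were found for NOC3 and RRP15, both involved in the large subunit. NOC3 measured 7.41 and 7.51 with Flavourzyme and 8.50 and 8.13 in the controls, and RRP15 gave 10.10 and 10.12 with Flavourzyme, against 10.79 and 10.84 in the controls. RNT1, the RNase III that cuts the ribosomal RNA precursor and is not on the list, had signals of 6.77 and 6.69 with Flavourzyme, against 8.27 and 7.75 in the controls.

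**Figure D3:**
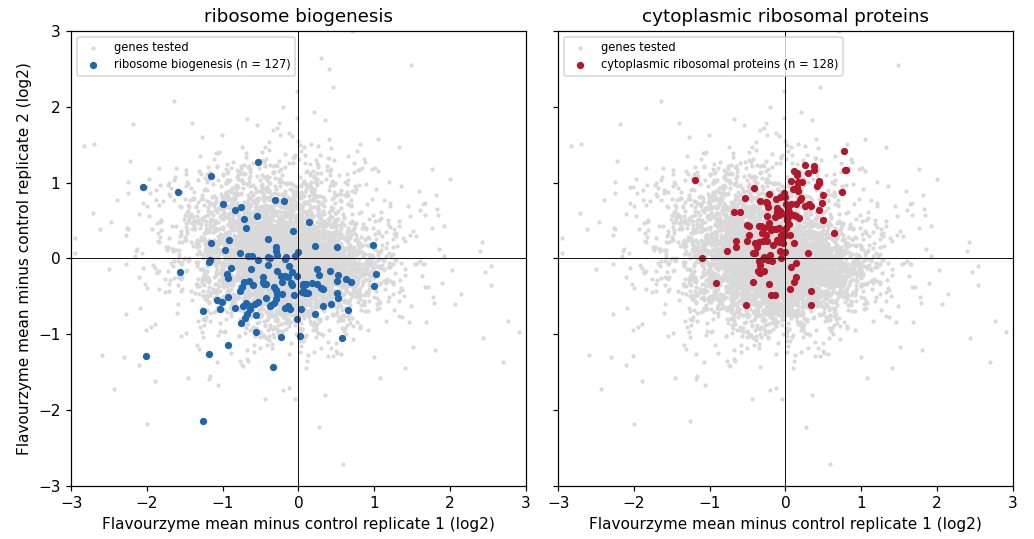
Difference of the Flavourzyme mean from control replicate 1 (x axis) and from control replicate 2 (y axis), in log2 units, for 127 ribosome biogenesis genes (left, blue) and 128 cytoplasmic ribosomal protein genes (right, red) over all genes tested (grey). The medians of the blue points lie at -0.32 and -0.32, those of the red points at -0.07 and 0.44.

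Ribosomal protein genes did not share that direction. Of 128 cytoplasmic ribosomal protein genes, 28 (21.9%) lay above both controls and 9 (7.03%) below both, where all genes had shares of 10.4% and 19.3%. The controls disagreed about the list: its median was -0.07 against control replicate 1 and 0.44 against control replicate 2. The 3 members called higher against each control were the subunit protein genes RPL9A and RPS0A and ASC1, which encodes a scaffold protein of the small subunit. ASC1 read 10.95 and 10.58 on the Flavourzyme arrays, against 9.97 and 9.60 on the control arrays, and RPL9A stood at 10.00 and 9.75 with Flavourzyme and at 9.13 and 9.00 in the controls. RPL11A measured 9.50 and 8.93 with Flavourzyme and 8.44 and 7.79 in the controls, and RPS22A gave 10.01 and 9.28 with Flavourzyme, against 8.86 and 8.47 in the controls. The groups of both did not overlap, and neither was called against each control. Many ribosomal protein genes have a near-identical second copy, so probe sets may read both. The mean of the ribosomal RNA probe sets, given above among the technical signals, was also higher with Flavourzyme, but single probe sets overlapped. A large subunit RNA probe set gave 13.69 and 13.88 with Flavourzyme, against 14.13 and 12.90 in the controls. Mitochondrial ribosomal protein genes showed the opposite split between the controls, with medians of 0.44 and -0.26. Between the controls lay 51 of 76 (67.1%, beside 38.7% of all genes).

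Hexose transporters were 2 of the 10 higher same-direction genes. Of the 16 measured members of the list, 5 lay above both controls and 2 below both (31.2% and 12.5%, beside 10.4% and 19.3% of all genes). Against each control alone 4 were called higher, 25% beside 0.586% of all genes. HXT17 had signals of 12.55 and 12.84 with Flavourzyme, against 11.21 and 10.14 in the controls (2.02 ± 0.37). HXT13 read 9.79 and 9.60 on the Flavourzyme arrays, against 8.24 and 6.36 on the control arrays (2.40 ± 0.62). Both were higher by at least 1.46 log2 units than either control, where the rule that picked them asked for at least 1. They are close relatives of each other, and their probe sets may hybridise with more than one of these sequences, so the 2 readings cannot be taken as separate.

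The low-affinity transporters of sugar-rich media also stood above both controls. HXT1 stood at 9.88 and 9.53 with Flavourzyme and at 8.11 and 8.81 in the controls (1.25 ± 0.29). HXT3 measured 12.52 and 12.55 with Flavourzyme and 10.71 and 11.89 in the controls (1.24 ± 0.39). HXT7, a high-affinity transporter whose probe set may also read its twin HXT6, gave 10.28 and 9.68 with Flavourzyme, against 8.34 and 9.26 in the controls (1.18 ± 0.37). In the 3 genes control replicate 1 was the lower of the controls, and control replicate 2 lay 0.89, 0.65 and 0.72 log2 units below the Flavourzyme mean.

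For the other glucose-regulated transporters the controls gave opposite answers. HXT2 had signals of 13.25 and 13.12 with Flavourzyme, against 9.84 and 13.78 in the controls, HXT4 read 11.64 and 12.01 on the Flavourzyme arrays, against 9.12 and 13.19 on the control arrays, and HXT8 stood at 9.73 and 9.81 with Flavourzyme and at 6.86 and 10.74 in the controls. All 3 lay between controls that were 3.88 to 4.07 log2 units apart, and the list median was 1.11 against control replicate 1 and 0.05 against control replicate 2. HXT2, HXT4 and HXT8 were chosen after their values were seen.

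**Figure D4:**
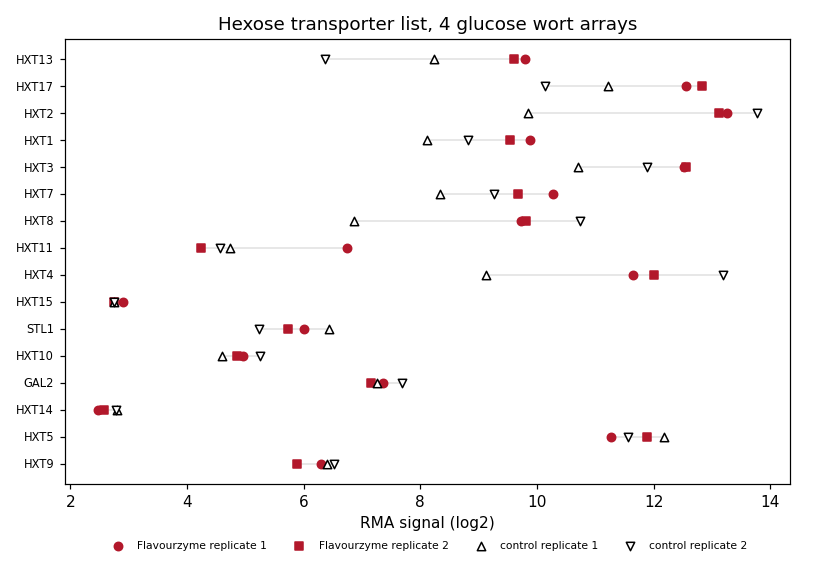
Log2 RMA signal (x axis) of the 16 genes of the hexose transporter list on the 4 glucose wort arrays, ordered by the difference of the group means, with filled red symbols for Flavourzyme and open symbols for control. Both Flavourzyme arrays lie right of both controls for HXT13, HXT17, HXT1, HXT3 and HXT7, and between widely spaced controls for HXT2, HXT8 and HXT4.

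Outside the hexose transporters, genes of sugar use went both ways. MAL11, a broad alpha-glucoside permease that carries maltose and maltotriose, measured 10.53 and 10.78 with Flavourzyme and 8.88 and 9.48 in the controls (1.47 ± 0.26). It was the only gene called against each control among 12 measured for maltose, isomaltose and sucrose use. Of these 12, 3 lay above both controls and none below (25% and 0%, beside 10.4% and 19.3% of all genes). GSY1, a glycogen synthase, gave 13.00 and 12.72 with Flavourzyme, against 11.50 and 11.90 in the controls (1.16 ± 0.23). Of 31 genes of glucose sensing and repression, 8 lay above both controls and 7 below (25.8% and 22.6%, beside 10.4% and 19.3% of all genes), and none was called against each control. STD1, which works in glucose sensing and repression, had signals of 10.67 and 10.70 with Flavourzyme, against 9.59 and 10.15 in the controls, and the repressor gene MIG3 read 11.02 and 10.96 on the Flavourzyme arrays, against 9.23 and 10.58 on the control arrays. Of 31 glycolysis and fermentation genes, 15 lay between the controls (48.4%, beside 38.7% of all genes). None of them was called against each control in the same direction.

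FDH1, the formate dehydrogenase gene, had the largest difference of the 10 higher same-direction genes, at 10.45 and 10.61 with Flavourzyme, against 5.98 and 8.87 in the controls (3.10 ± 0.87). Its difference was 4.54 against control replicate 1 and 1.66 against control replicate 2, so the size of the change depended on the control. MAE1, the mitochondrial malic enzyme that makes pyruvate from malate, was lower, at 9.66 and 9.57 with Flavourzyme, against 10.80 and 11.21 in the controls (-1.39 ± 0.22). MCH5, a riboflavin transporter, stood at 9.66 and 10.38 with Flavourzyme and at 12.32 and 11.32 in the controls, and its duplicates were 0.72 log2 units apart with Flavourzyme and 1.00 in the controls.

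The zinc and iron list had 11 of 31 members (35.5%) above both controls and 3 (9.68%) below, against 10.4% and 19.3% of all genes, with medians of 0.26 and 0.11 against the controls. FTR1, the plasma membrane iron permease, measured 9.80 and 10.16 with Flavourzyme and 7.97 and 8.94 in the controls (1.53 ± 0.35). FET3, the multicopper oxidase that works with it, gave 10.02 and 10.36 with Flavourzyme, against 5.84 and 9.38 in the controls (2.58 ± 1.06), so it differed by 4.35 from control replicate 1 and by 0.81 from control replicate 2. FRE4, a reductase of siderophore iron, had signals of 6.78 and 6.81 with Flavourzyme, against 6.39 and 6.19 in the controls, and differed more from the second. FET3 was chosen after its values were seen. ZAP1, the activator of zinc uptake genes, read 11.52 and 11.91 on the Flavourzyme arrays, against 10.62 and 11.11 on the control arrays. FIT2, a cell wall mannoprotein that retains siderophore iron, went the other way, at 4.21 and 4.38 with Flavourzyme, against 4.78 and 4.85 in the controls, on both sides below the *S. pombe* level. Only FTR1 of this list was called in the same direction against each control.

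Amino acid permease genes lay above both controls more often than below both. Of 20 measured, 7 (35%) lay above both controls and 1 (5%) below, compared with 10.4% and 19.3% of all genes, and the median difference was 0.44 against control replicate 1 and 0.12 against control replicate 2. GNP1, a permease with glutamine among its substrates, stood at 10.04 and 10.01 with Flavourzyme and at 8.42 and 9.39 in the controls (1.13 ± 0.33). It was the only permease of the list called in the same direction against each control. TAT1, which carries branched-chain and aromatic amino acids, measured 9.37 and 9.77 with Flavourzyme and 8.98 and 8.98 in the controls (0.59 ± 0.21). ALP1, an arginine transporter, gave 8.95 and 9.10 with Flavourzyme, against 7.70 and 8.60 in the controls (0.88 ± 0.32).

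The permeases of branched-chain amino acids showed how much the first control weighed. BAP3 had signals of 9.73 and 10.22 with Flavourzyme, against 6.10 and 9.33 in the controls, and BAP2 read 11.76 and 12.21 on the Flavourzyme arrays, against 8.21 and 11.68 on the control arrays. Their means were higher by 3.88 and 3.78 than control replicate 1 but by 0.65 and 0.30 than control replicate 2. TAT2, the tryptophan permease, stood at 9.50 and 9.82 with Flavourzyme and at 6.12 and 10.97 in the controls, and so lay between them. TAT2 was called higher against control replicate 1 and lower against control replicate 2. BAP2 and TAT2 were chosen after their values were seen.

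Genes for poor nitrogen sources again met an uneven pair of controls. None of 13 genes of proline, arginine and allantoin breakdown lay above both controls and 4 (30.8%) lay below, where 10.4% and 19.3% of all genes did, with medians of -0.97 and -0.20. DAL4, the allantoin permease, measured 4.78 and 4.76 with Flavourzyme and 7.95 and 5.64 in the controls (-2.03 ± 0.70), and was called lower against each control, but both Flavourzyme values were under the *S. pombe* level of 4.95. DAL3, another gene of allantoin breakdown, gave 5.84 and 5.77 with Flavourzyme, against 8.63 and 4.32 in the controls, and was called in opposite directions against the controls. It was chosen after its values were seen. PUT1, the proline oxidase, had signals of 13.47 and 13.28 with Flavourzyme, against 13.81 and 13.58 in the controls, and PUT2, the next enzyme of proline use, read 10.89 and 11.04 on the Flavourzyme arrays, against 11.99 and 11.27 on the control arrays. PUT1 and PUT2 did not overlap between the groups, by margins of 0.11 and 0.23 log2 units. MEP2, the high-affinity ammonium permease, stood at 10.13 and 8.68 with Flavourzyme and at 12.12 and 8.81 in the controls, and its groups overlapped.

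Regulators of nitrogen use did not stand clear of all genes. Of 19 genes of nitrogen catabolite repression and GATA factors, 1 lay above both controls and 3 below (5.26% and 15.8%). The shares of all genes were 10.4% and 19.3%. No gene of this list was called against each control. UGA3, the activator of the genes for gamma-aminobutyrate use, measured 9.21 and 9.36 with Flavourzyme and 9.93 and 9.90 in the controls. NPR3, a subunit of the complex that restrains TORC1 when amino acids are short, gave 8.13 and 7.78 with Flavourzyme, against 8.93 and 8.49 in the controls. Of 14 peptide transporter genes, 3 lay above both controls and 1 below (21.4% and 7.14%). Vacuolar and cytosolic peptidase genes had 2 of 21 above and 4 below (9.52% and 19.0%). Autophagy genes had 3 of 29 above and 6 below (10.3% and 20.7%). The peptidase and autophagy shares were near those of all genes.

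Amino acid synthesis genes went both ways. Of 115 genes on 8 lists, 21 lay above both controls and 21 below (18.3% each, beside 10.4% and 19.3% of all genes). Medians over the 8 synthesis lists ran from -0.19 (histidine) to 0.18 (methionine, cysteine and threonine) on the log2 scale, and the histidine median was -0.66 against control replicate 1 and 0.08 against control replicate 2. LEU9, one of the enzymes that commit carbon to leucine, was the only gene of these lists called in the same direction against each control. It stood at 8.03 and 7.63 with Flavourzyme, against 6.86 and 6.65 in the controls (1.08 ± 0.22). ARO9, an aromatic aminotransferase, had signals of 8.76 and 8.04 with Flavourzyme, against 7.56 and 7.20 in the controls, and ARO1, which carries most steps of the shikimate path, read 10.92 and 10.68 on the Flavourzyme arrays, against 10.29 and 10.28 on the control arrays. Neither was called against each control, although their groups did not overlap.

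Sulphur genes went both ways. SUL1, a sulphate permease, stood at 5.85 and 5.99 with Flavourzyme and at 4.25 and 5.19 in the controls, and MET5, a subunit of sulphite reductase, measured 9.84 and 9.89 with Flavourzyme and 9.34 and 9.34 in the controls. MET13, which makes the methyl donor for methionine, gave 10.08 and 10.45 with Flavourzyme, against 10.81 and 11.11 in the controls. Over the list, 7 of 35 genes lay above both controls and 3 below (20% and 8.57%, beside 10.4% and 19.3% of all genes). Cytoplasmic aminoacyl-tRNA synthetase genes, which charge tRNAs, had 2 of 22 above both controls and 1 below (9.09% and 4.55%). Between the controls lay 11 (50%, beside 38.7% of all genes).

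From the genes the study names, 15 were followed here, 6 named for a glucose-specific response and 9 for an enzyme effect in both worts. They were chosen on these samples, so their counts are not independent evidence. The 6 glucose-specific ones, RME1, MCD4, SLD2, SWD2, YJR011C and YCR016W, were all called against each control alone, 5 lower and 1 higher. MCD4, which acts in the making of the GPI anchor, was the higher one, at 10.71 and 10.60 with Flavourzyme, against 9.96 and 9.96 in the controls (0.69 ± 0.18). SWD2, a subunit of the COMPASS histone methyltransferase, had signals of 6.94 and 6.96 with Flavourzyme, against 7.47 and 7.61 in the controls, and YJR011C read 5.54 and 5.80 on the Flavourzyme arrays, against 6.73 and 6.68 on the control arrays. The controls of YJR011C were 0.05 log2 units apart, and those of MCD4 closer still. The other 9 differed by -0.40 to 0.34 in glucose wort, and none was called in the same direction against each control. The study named these 9 for the enzyme regardless of syrup and with a fold threshold. Glucose wort alone is a part of that comparison, so the values do not test it.

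Anaerobic cell wall genes lay above both controls more often than below. The list of DAN/TIR mannoproteins and sterol uptake genes, which are induced without oxygen, had 7 of 17 members (41.2%) above both controls and 2 (11.8%) below, next to 10.4% and 19.3% of all genes. TIR1, a cell wall mannoprotein, stood at 11.65 and 11.54 with Flavourzyme and at 10.57 and 10.68 in the controls (0.97 ± 0.18), and AUS1, a sterol importer, measured 8.64 and 9.00 with Flavourzyme and 8.18 and 7.70 in the controls (0.88 ± 0.25). Both were called higher against each control. TIR2 gave 10.46 and 10.51 with Flavourzyme, against 9.88 and 9.95 in the controls, while the mannoprotein gene DAN1 was on the other side, at 7.57 and 7.96 with Flavourzyme, against 8.65 and 8.38 in the controls.

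Genes of chromosome cohesion and cell separation were among the higher ones, with duplicates far apart. MCD1, the cohesin subunit that holds sister chromatids together, had signals of 8.18 and 7.22 with Flavourzyme, against 6.37 and 6.23 in the controls (1.40 ± 0.33). DSE4, a glucanase that frees the daughter cell, read 8.10 and 7.36 on the Flavourzyme arrays, against 6.68 and 6.15 on the control arrays (1.31 ± 0.32). HUR1, a gene linked to hydroxyurea resistance, stood at 9.31 and 7.61 with Flavourzyme and at 7.45 and 7.26 in the controls (1.10 ± 0.53). In all 3 the first Flavourzyme array, which stood apart in its spike transcripts, was the higher, and none was called against each control. PRY3, a cell wall protein, measured 9.07 and 8.89 with Flavourzyme and 7.93 and 7.82 in the controls (1.10 ± 0.19), and YKL018C-A, an uncharacterised frame, gave 11.63 and 11.68 with Flavourzyme, against 10.45 and 10.64 in the controls (1.11 ± 0.20). For these 2 genes no duplicates were more than 0.19 log2 units apart.

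The lower genes NMD4, ARR3 and YAP7 came from RNA decay, arsenite export and transcription. NMD4, a partner of the nonsense-mediated decay helicase, had signals of 5.32 and 4.84 with Flavourzyme, against 7.67 and 6.35 in the controls (-1.93 ± 0.46). ARR3, an arsenite exporter, read 5.50 and 5.98 on the Flavourzyme arrays, against 7.05 and 6.93 on the control arrays (-1.25 ± 0.24). YAP7, a factor of the basic leucine zipper family, stood at 5.08 and 5.83 with Flavourzyme and at 7.56 and 6.86 in the controls (-1.75 ± 0.36). The controls of NMD4 were 1.32 log2 units apart, and those of ARR3 0.12. The second Flavourzyme value of NMD4 lay under the *S. pombe* level of 4.95, near background.

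Proteasome and nucleotide synthesis genes lay below both controls more often than genes at large, by small amounts. Of 36 proteasome genes, 14 (38.9%) lay below both controls and none above, with a median difference of -0.18. The shares of all genes were 19.3% below and 10.4% above. The median signal of the proteasome list was 11.40 and 11.67 with Flavourzyme, against 11.62 and 11.81 in the controls, so the first Flavourzyme array was the lower. PRE3, a catalytic core subunit, measured 11.46 and 11.70 with Flavourzyme and 12.13 and 11.96 in the controls, and RPT5, an ATPase of the regulatory particle, gave 10.91 and 11.22 with Flavourzyme, against 11.46 and 11.47 in the controls. Of 30 purine and pyrimidine synthesis genes, 13 (43.3%) lay below both controls and 2 above, and ADE2, an enzyme of the purine path, had signals of 10.48 and 10.68 with Flavourzyme, against 11.08 and 11.01 in the controls. No member of either list was called in the same direction against each control. After median centring 12 and 8 lay below both, where 14.3% of all genes did.

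**Figure D5:**
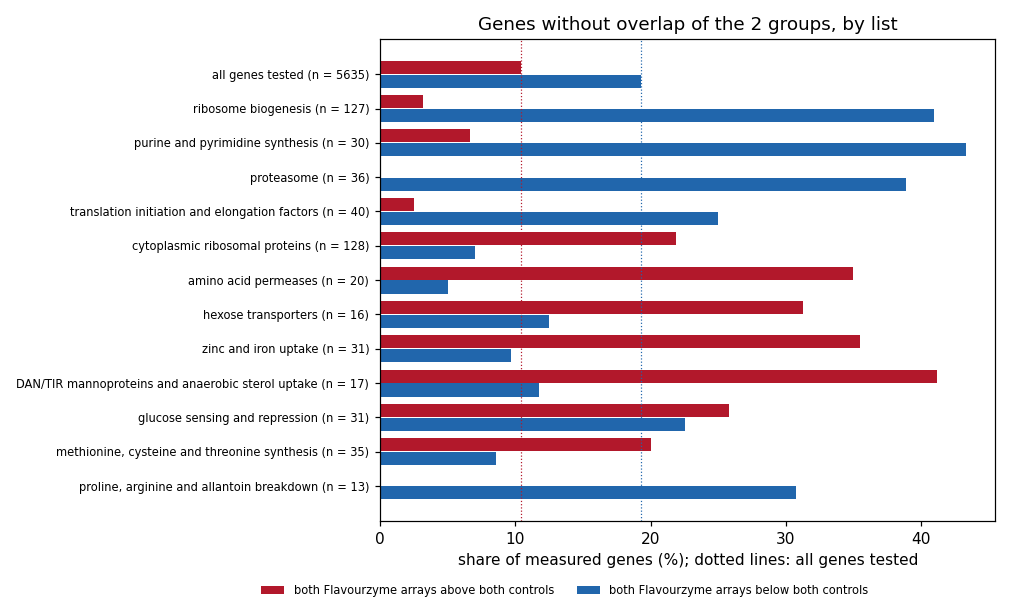
Share of the measured genes of each list, in percent, for which both Flavourzyme arrays lay above (red) or below (blue) both controls, with dotted lines at the shares of all genes, 10.4% and 19.3%. Ribosome biogenesis reaches 40.9% below, and the amino acid permeases 35% above.

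Chaperone genes mostly lay between the controls. HSP82, the inducible Hsp90, read 12.47 and 12.52 on the Flavourzyme arrays, against 13.09 and 13.40 on the control arrays (-0.75 ± 0.20), and was called lower against each control. AHA1, which activates the Hsp90 ATPase, stood at 10.24 and 10.55 with Flavourzyme and at 11.09 and 11.02 in the controls. Of 31 chaperone genes, 5 lay below both controls, 2 above and 19 between them (16.1%, 6.45% and 61.3%). The shares of all genes were 19.3%, 10.4% and 38.7%. Of 30 oxidative stress genes, 3 lay above both controls, 3 below and 16 between them (10%, 10% and 53.3%). GPX2, a glutathione peroxidase, reached 8.88 and 8.65 with Flavourzyme, against 7.64 and 7.999 in the controls, and was the only one called in the same direction against each control. The catalase CTT1 measured 12.09 and 12.41 with Flavourzyme and 13.65 and 10.47 in the controls, and the polyamine exporter TPO4 gave 8.65 and 9.23 with Flavourzyme, against 11.13 and 7.17 in the controls. CTT1 and TPO4 lay between controls that were 3.19 and 3.96 log2 units apart, and both were chosen after their values were seen. Genes called in opposite directions were lower than control replicate 1 and higher than control replicate 2 in 150 of 185 cases (81.1%).

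The glucose effect was set against the effect in maltose wort, which rests on 1 Flavourzyme array and 2 controls, so the spread of the lone array was taken from the other groups. In a test of the difference (maltose effect minus glucose effect), 2 of 5635 genes (0.0355%) passed an adjusted p of 0.05 in limma, PUT1 and FLO9. PUT1 differed by 5.30 (adjusted p = 0.0305): the maltose wort sample with Flavourzyme gave 12.79, against 7.67 and 7.95 in the maltose controls, beside the small glucose difference given above. FLO9, a flocculin gene named after its values were seen and read by a probe set that may bind related flocculins, differed by 5.17 (adjusted p = 0.0374). It had signals of 5.14 and 4.95 with Flavourzyme, against 4.85 and 5.33 in the controls, in glucose wort. In maltose wort it gave 10.58 with Flavourzyme, against 5.58 and 5.35 in the controls. In both genes the difference between the worts came from the maltose side. No gene passed with the replicate block, or without any one of the maltose controls or glucose Flavourzyme arrays, and 1 passed when shared probe sets were left out. The count was 167 after quantile normalisation over the *S. cerevisiae* probe sets alone, and 1765 or 2200 without the first or the second glucose control.

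None of the 80 genes called against each glucose control in the same direction passed that test, and the lowest adjusted p among them was 0.0614. Of the 33 higher ones, 10 were also higher in maltose wort with Flavourzyme and 23 lower, where 47.2% of all genes were higher. Of the 47 lower ones, 16 were lower in maltose wort and 31 higher, where 52.8% of all genes were lower. FDH1 gave 6.45 in maltose wort with Flavourzyme, against 10.48 and 10.45 in the maltose controls. RME1 gave 7.33 in maltose wort with Flavourzyme, against 7.10 and 6.96 in the maltose controls. The ribosome biogenesis list had a median of -0.27 in glucose wort and -0.09 in maltose wort, and the cytoplasmic ribosomal protein list 0.15 and -1.20. The difference of these medians between the worts was not tested.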

How the data were processed

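The authors read the scans in Microarray Suite (MAS5), then ran rma from the R package affy to obtain the deposited log2 values, which covers background correction, quantile normalisation over all 10928 probe sets and median polish. The version of affy is not given in the sources used here, and these log2 values entered the analysis unchanged. Probe sets with 1 *S. cerevisiae* gene, told from *S. pombe* by the Entrez gene ID in the platform annotation, were kept (5685 of 10928; 46 named several genes and 281 were not in that annotation), and for 48 genes with several the brightest was taken, which left 5635 genes. No filter on dim signals was applied, and the number of arrays limits the precision.

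The model, run in limma 3.58.1 under R 4.3.3, held the means of the 4 groups (3 residual degrees of freedom, eBayes with 2.78 prior degrees of freedom), two-sided, with Benjamini-Hochberg adjustment over all genes and a threshold of 0.05. The methods' test was a 2-way ANOVA, whose terms this fit holds. The same fit was run with each glucose control left out. Same-direction genes were counted without a test. Gene lists (54, written from general knowledge) are described by counts and medians only.

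Genes were named by rule: up to 12 same-direction genes in each direction, 4 list members with the lowest p in each list, and 15 genes that the study names for an enzyme or glucose-specific effect. BAP2, CTT1, FET3, FLO9, HXT2, HXT3, HXT4, HXT8, MAM1, MEP2, RNT1, RPS0A, RRP15, TAT2, TPO4, DAL3, RHB1, NAT4 and CBS1 fall outside it, having been picked with their values in view. The members and lists were chosen with earlier results of these data known. The fits were tested on simulated data. No gene was placed on a genome, since neither a genome nor gene sequences were used here. The second maltose array with Flavourzyme was not analysed here.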

Additional observations from a re-analysis of the deposited data

Results flagged for a closer look

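For PUT1, the maltose effect of Flavourzyme exceeded the glucose effect by 5.30 log2 units, a difference past the threshold in limma's test of the interaction (adjusted p = 0.0305), which rests on 1 maltose Flavourzyme array. FLO9 is the other gene past that threshold, by 5.17 log2 units (adjusted p = 0.0374), and is read by a probe set shared with related sequences. Neither gene passed with the replicate block, or without any one of the maltose controls or glucose Flavourzyme arrays, and 1 gene passed when shared probe sets were left out.

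Signals outside the gene comparison were also examined. The ribosomal RNA probe sets averaged 12.7 with Flavourzyme and 11.4 in the controls. Over the control genes, which did not all go the same way, the 3′ minus 5′ difference averaged 1.25 with Flavourzyme and 0.93 in the controls. The poly-A spike probe sets overlapped between the groups, with 11.7 and 7.30 with Flavourzyme, against 7.25 and 9.09 in the controls. No group had 4 arrays, so single arrays were not tested for standing apart within a group.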

How the results depend on the processing

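The 2 glucose controls set most limits: the count of genes called with both controls stayed at 0 under the 10 other settings and was 0 to 1874 when 1 array was left out (563 without control replicate 1, 1874 without control replicate 2, otherwise 0). Unadjusted p under 0.05 was reached by 137 genes with only the 4 glucose arrays, 445 without moderation and 214 in the methods' t-test (0 after Benjamini-Hochberg), against 393. The labels do not say that the replicate number pairs the samples. Same-number deviations of the Flavourzyme and control arrays correlated at 0.18, and 1 such value cannot decide whether they are paired. With the replicate block, 0 genes were called with both controls, 0 in the interaction, 78 against control replicate 2 alone, 16 against each control in the same direction and 17 in opposite directions.

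The count against control replicate 1 alone was 487 with only the glucose arrays, 19 without moderation and 288 with the methods' fold threshold, and 487 to 3406 leaving out an array. Against control replicate 2 alone it was 0, 3 and 77, then 344 after quantile normalisation over *S. cerevisiae* probe sets, and 0 to 2912 leaving out an array. Genes called against each control in the same direction numbered 0 with only the glucose arrays, 1 without moderation, and 0 to 992 leaving out an array. Of the 80, 48 remained after that quantile normalisation (66 called, 54.5% of them higher) and 58 after median centring (67 called, 58.2% higher, beside 41.2% as deposited). Those in opposite directions numbered 0 with only the glucose arrays, 2 without moderation, 105 after the quantile normalisation, and 0 to 885 leaving out an array. These alternatives to the fits with 1 control were chosen after seeing the data.

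Same-direction genes numbered 1675 with a smallest difference of 0 and 10 with the methods' fold threshold as that difference, and 30 to 658 leaving out an array (287 without control replicate 1, 658 without control replicate 2, and 75 without the second Flavourzyme array). The interaction count was 1 without moderation, with trend and robust moderation, with median centring and without shared probe sets, 167 after the quantile normalisation, and 0 to 2200 leaving out an array. It cannot be fitted without the maltose Flavourzyme array.

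Of 84 genes of the text, 9 changed sign somewhere. Leaving out an array, HXT2 ranged from -0.59 to 3.35, HXT4 from -1.37 to 2.70, HXT8 from -0.97 to 2.91, TAT2 from -1.31 to 3.54, MEP2 from -2.72 to 0.60, TPO4 from -2.19 to 1.77, CTT1 from -1.40 to 1.79, DAL3 from -2.83 to 1.49 and FLO9 from -0.29 to 0.19, and these ends came without one or the other glucose control. FLO9 was at 0.0489 with median centring. The list medians moved by more than the spread between the controls in 32 of 108 cases under the other scalings and in 58 of 216 leaving out an array. The cause was not tested.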
